A study of Arabidopsis thaliana with 4 samples.

Results

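Binding of the NAC-domain factor ANAC060 was examined at 7 genes of the phytochrome-interacting bHLH family of Arabidopsis thaliana: PIF1 (AT2G20180), PIF3 (AT1G09530), PIF4 (AT2G43010), PIF5 (AT3G59060), PIF7 (AT5G61270), HFR1 (AT1G02340) and PIL1 (AT2G46970). They were taken by locus, 7 of 27444 nuclear protein-coding genes, and a gene was counted as carrying a peak where a peak touched its body or the 1 kb on either side. The study mapped ANAC060 by chromatin immunoprecipitation and sequencing (ChIP-seq) in whole 10-d-old seedlings in 4 libraries, 1 per group. The ChIP libraries came from the 35S:ANAC060-GFP/anac060 transgenic line, in the Columbia (Col-0) ecotype, grown with 6% glucose or without glucose. Their controls were input DNA, without antibody, from wild-type Col-0 seedlings of the same treatment. All samples had 3 d of stratification, and all seedlings grew under constant light at 22 °C. The labels also name 6% sorbitol, without saying which samples had it. The strong, broadly active 35S promoter drove the fusion in a single transgenic line, so the peaks describe an overexpressed protein. A precipitate from plants without the tag was not analysed here.

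Phytochromes are red and far-red light receptors, and the phytochrome-interacting factors (PIFs) are bHLH proteins that bind E-box DNA and hold back light-grown development in the dark. Active phytochrome binds most PIFs and marks them for destruction, and PIFs that accumulate in shade, warmth or darkness promote elongation through auxin genes. In Arabidopsis seedlings they are also known to be needed for elongation growth promoted by sucrose. HFR1 is an atypical member that pairs with PIF4 and PIF5 and keeps them from DNA, and PIL1 is rapidly induced by shade.

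Peaks were found at 4 of the 7 genes in the glucose list (PIF3, PIF5, HFR1 and PIL1), where 18.1% of all nuclear protein-coding genes had one. In the no-glucose list they were also found at 4 of 7 (PIF1, PIF3, PIF5 and HFR1), against 25.5% of all genes. PIF3, PIF5 and HFR1 were in both lists, against 13.9% of all genes. PIL1 was in the glucose list alone, against 4.25% of all genes, and PIF1 in the no-glucose list alone, against 11.6%. Counting either list, 5 of 7 genes had a peak, against 29.7% of all genes. PIF4 and PIF7 had no peak in either list, as was the case for 70.3% of all genes. The 7 gene bodies were 2265 to 3887 bp long. Among the 11196 genes of 2 to 4 kb the shares with a peak were 20.6% with glucose and 29.3% without. With 7 genes and 1 library a group, no test was made of these shares, and the genes had been chosen with earlier results of these data known.

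The peaks were mostly of low or middle rank. The score is the authors' own value for each peak, and it is used here to place a peak within its list. The glucose list held 2859 peaks with scores from 30.02 to 3100 (median 57.65), and the no-glucose list 4155 peaks from 100.01 to 3100 (median 180.05). Since the lists start at different scores, each value below is read against its own list. Read depth was unknown. Of the 10 peaks at the family, 5 in each list, only those of HFR1 reached the median score, so 2 of 10. Over the best peak of each gene, the median share of peaks with a lower score was 42.6% for the 4 family genes listed with glucose and 39.4% for the 4 listed without. Over every protein-coding gene with a peak this median was 54.7% for the 4978 genes of the glucose list and 55.0% for the 6989 genes of the no-glucose list. Among peaks at or above the median score, HFR1 was the 1 family gene left in each list, against 9.91% of all genes with glucose and 14.0% without. At a score of at least 100, none was left in the glucose list, against 4.93% of all genes, and HFR1 missed that minimum by less than 1 point. With as many no-glucose peaks as glucose peaks, the highest-scoring taken, 4 of 7 genes kept a no-glucose peak, against 18.5% of all genes.

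**Figure D1:**
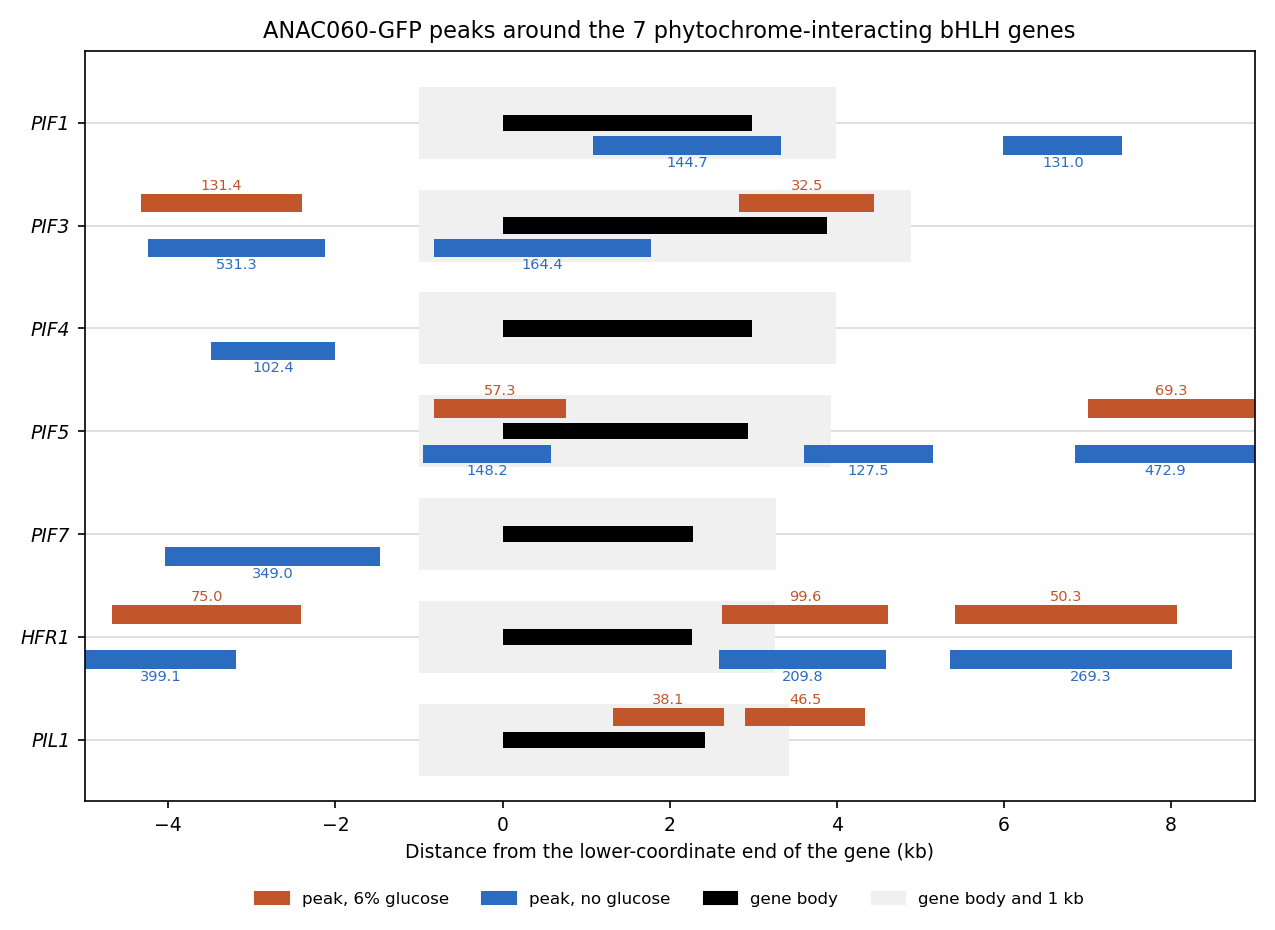
Peaks around the 7 genes, drawn by distance (kb) from the gene end with the lower coordinate, with the authors' score beside each peak. Black bars are gene bodies, pale boxes the body with 1 kb on either side, and peaks of the glucose list lie above those of the no-glucose list. PIF5 and HFR1 have overlapping peaks of both lists, PIF3 has its peaks at opposite ends, and no peak enters the boxes of PIF4 and PIF7.

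PIF1 restrains seed germination in the dark and chlorophyll synthesis in seedlings. No glucose-list peak lay within 1 kb of it, and the nearest was 8030 bp away by RPT2b, with a score of 47.29. In the no-glucose list a peak of 2250 bp lay over the gene (chromosome 2, 8705103 to 8707353, TAIR10), with a score of 144.7 and rank 2755 of 4155. It covered 63.9% of the annotated gene, more than any other family peak did of its gene, and its centre was inside the gene, 781 bp from the end. The PIF1 and AT2G20170 gene models overlap by 334 bp, and the peak also fell within 1 kb of AT2G20170. Of the 831 no-glucose peaks within 10 percentile points of this score, 36.3% overlapped a glucose peak. A second no-glucose peak lay 3007 bp beyond the gene, with a score of 131.03, nearest to the microtubule-associated protein gene CLASP.

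PIF3, the first PIF to be described and a regulator of greening and elongation, was in both lists but at different places. The glucose peak (chromosome 1, 3078598 to 3080214, TAIR10) had a score of 32.51, rank 2638 of 2859, near the bottom of its list. It reached over the higher-coordinate end and covered 27.2% of the gene. The no-glucose peak (3074942 to 3077544) had a score of 164.39, rank 2355 of 4155, and covered 45.7% of the gene from the other end. These peaks were 1054 bp apart, with 3163 bp between their centres. Such a lack of overlap was uncommon: of 3812 genes with a peak in both lists, 96.4% had peaks that overlapped by at least 1 bp, and PIF3 was among the other 139. Of the 509 glucose peaks with a score like that of PIF3 (30.02 to 36.58), 53.8% overlapped a no-glucose peak. Each of its peaks touched no other protein-coding gene.

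Outside the 1 kb limit, both lists held a higher-scoring peak on the lower-coordinate side of PIF3. The glucose peak there had a score of 131.41 (rank 444, 84.5% of peaks lower) and lay 2400 bp from the gene. The no-glucose peak had 531.27 (rank 304, 92.7% lower) at 2123 bp. The peaks overlapped, and their centres were closest to AT1G09520, 331 bp from it with glucose and 509 bp without. Within its own list, each of them scored higher than the peak in the PIF3 gene.

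PIF4 and PIF5 are close relatives that promote hypocotyl elongation in warmth and shade, and they differed in the lists. PIF4 had no peak within 1 kb. Its nearest glucose peak was 16512 bp away, with a score of 98.2. The gene closest to that peak's centre was IBH1, more than 1 kb from the peak. The nearest no-glucose peak to PIF4 lay 2000 bp from it and had a score of 102.38 (rank 4071 of 4155). This was just above the lowest score of that list. The centre of the no-glucose peak was closest to NAC042, 721 bp from it. NAC042, also named JUB1, is a NAC factor gene of the stress and longevity response.

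PIF5 carried a peak over the same end in both lists. The glucose peak (chromosome 3, 21827079 to 21828665, TAIR10) had a score of 57.28, rank 1442 of 2859, and the no-glucose peak (21826950 to 21828490) 148.16, rank 2678 of 4155. They shared 1411 bp, 89.0% of the glucose and 91.6% of the no-glucose peak, and their centres were 152 bp apart. Both centres fell just outside the gene body, 33 bp from it with glucose and 185 bp without, in the interval of 396 bp between PIF5 and the polyamine oxidase gene PAO3. Both peaks reached into both genes. The no-glucose list had a second, lower peak on the other side (21831513 to 21833058, score 127.53, rank 3171), 676 bp from PIF5, whose centre was 79 bp from AT3G59070. Among like-scored peaks, 73.6% with glucose and 36.6% without overlapped the other list. PIF5 and HFR1 also met an overlap of 50% of each peak, as did 86.9% of the genes with a peak in both lists.

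PIF7, which drives the rapid auxin response to shade, had no peak within 1 kb in either list. The nearest glucose peak was 10798 bp away, with a score of 38.97. The nearest no-glucose peak ended 1468 bp from the gene, with a score of 349.04 (rank 721, 82.6% of peaks lower), and its centre was closest to the glucuronidase gene GUS1. With flanks of 2 kb, PIF4 and PIF7 joined the no-glucose genes through these peaks, for 6 of 7 genes against 31.0% of all genes, whereas the glucose list stayed at 4 of 7 against 22.4%. With flanks of 500 bp, 4 of 7 genes had a peak in each list, against 16.3% of all genes with glucose and 23.1% without. The farthest peaks inside the 1 kb limit lay 676 bp from PIF5 and 474 bp from PIL1, and the nearest outside it lay 1468 bp from PIF7. The PIF7 and AT5G61260 gene models overlap by 318 bp.

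HFR1, the inhibitor of PIF4 and PIF5, had the highest-scoring peaks of the family in both lists. The glucose peak (chromosome 1, 468239 to 470228, TAIR10) had a score of 99.57, rank 680 of 2859, and 76.2% of the list scored lower. The no-glucose peak (468205 to 470208) had 209.8, rank 1659 of 4155, with 60.1% lower. They coincided almost fully, sharing 1969 bp (99.0% of the glucose and 98.3% of the no-glucose peak) with centres 27 bp apart. Neither touched the gene body: the gaps to HFR1 were 359 bp with glucose and 325 bp without. Their centres lay 1353 bp with glucose and 1326 bp without from HFR1, and nearer to AT1G02350, at 585 bp with glucose and 612 bp without. Among glucose peaks of like score 87.4% overlapped a no-glucose peak.

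HFR1 also stood in a stretch with several peaks. On its lower-coordinate side a glucose peak with a score of 74.96 lay 2409 bp away and a no-glucose peak with 399.13 lay 3188 bp away. On the other side a glucose peak with 50.32 lay 3145 bp away and a no-glucose peak with 269.33 lay 3084 bp away, both centred in AT1G02360. Each of these overlapped a peak of the other list.

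PIL1, a shade-induced gene, was in the glucose list alone. A peak over its higher-coordinate end (chromosome 2, 19296750 to 19298082, TAIR10) had a score of 38.11, rank 2257 of 2859, and covered 45.7% of the gene. A second (19298332 to 19299769) had 46.55, rank 1839, and lay 474 bp outside the gene with its centre 442 bp from ASY3, a gene of the meiotic chromosome axis. The nearest no-glucose peak was 5476 bp from PIL1, with a score of 248.66. Of glucose peaks with a score like that of the first, 59.3% overlapped a no-glucose peak, and with a score like that of the second, 69.9% did. Whether the minimum score of the no-glucose list plays a part at PIL1 was not tested.

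At the sites shared by both lists, the score without glucose was 2.59 times that with glucose at PIF5 and 2.11 times at HFR1. Over all 2117 glucose peaks that overlapped a no-glucose peak the median ratio was 3.52, with 1.63 and 8.0 at the 10th and 90th percentiles. Both family values lay inside that range. The glucose list starts at a score of 30.02 and the no-glucose list at 100.01, so no pair could hold a no-glucose score below 100.01. With 1 library a group, unequal minimum scores and depth unknown, these ratios neither show nor exclude a gain or loss at these genes.

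**Figure D2:**
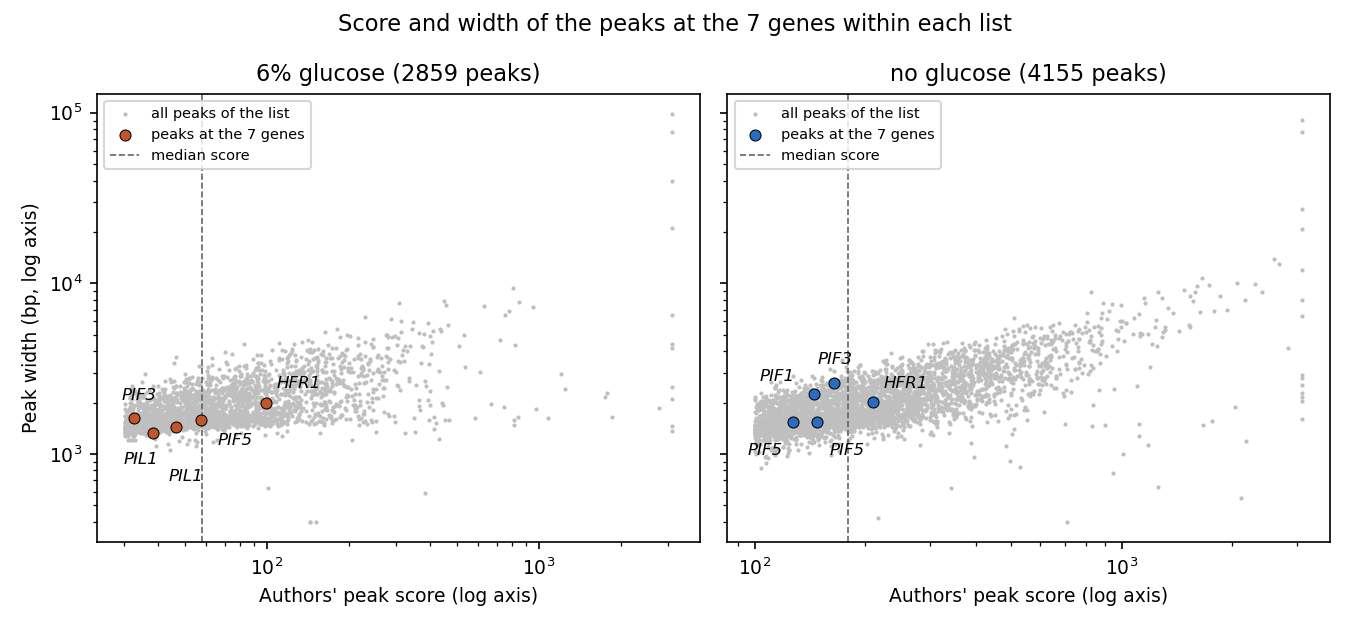
Score (log axis) and width (bp, log axis) of every peak in the glucose list, left, and in the no-glucose list, right, with the peaks at the 7 genes in colour and the median score dashed. The family peaks are 1332 to 2602 bp wide, and only HFR1 lies right of the median in either panel.

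The place of the 10 peaks relative to the genes varied. The centre was inside the family gene in 4 of them (PIF1, both of PIF3 and 1 of PIL1) and between protein-coding genes in the other 6. Over all peaks, 48.5% of glucose and 38.4% of no-glucose centres fell in a protein-coding gene. The family gene was the one nearest to the centre for 6 peaks, and another gene was nearer for 4 (both of HFR1, 1 of PIF5 and 1 of PIL1). No such share over all genes is given here, so these counts describe the family peaks alone. Under the rule that a peak's centre must lie in the gene or within 1 kb, HFR1 left both lists and 3 of 7 genes remained in each, against 13.9% of all genes with glucose and 19.6% without. With peaks in the gene body alone it left them too, with 3 of 7 genes in each, against 14.3% of all genes with glucose and 20.9% without.

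Of the 10 peaks, 7 also touched a second gene. Over all peaks, 69.5% with glucose and 68.6% without touched 2 or more genes.

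Of the 8 remaining genes of the PIF-related bHLH subgroup, none had a peak in the glucose list, against 18.1% of all genes. In the no-glucose list 1 of 8 had one, against 25.5% of all genes. This was PIF6, a factor of seed dormancy. Its peak (chromosome 3, 22990493 to 22991980) had a score of 170.17, rank 2231 of 4155. UNE10, also named PIF8, and the carpel and fruit genes SPT and ALC had none in either list. The same held for AT4G28790, AT4G28800, AT4G28811 and AT4G28815, neighbours on chromosome 4.

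Photoreceptor and light-signalling genes were represented by 6 of 22 genes (27.3%) with glucose and by 12 of 22 (54.5%) in the no-glucose list. The shares of all genes were 18.1% with glucose and 25.5% without. The 6 with a peak in both lists, against 13.9% of all genes, were PHYA, PHYB, SPA1, HY5, FHL and ELF3. At each of them the peaks of the lists overlapped, as they did at 96.4% of all genes with a peak in both lists. PHYA, the far-red receptor gene, had its best peak at 186.86 with glucose (91.5% of peaks lower) and 546.88 without (93.2% lower), and a second peak at its other end in both lists. FHL, which helps carry phytochrome A into the nucleus, had 314.77 with glucose (97.0% lower) and 305.26 without (78.4% lower). SPA1, a partner of the ubiquitin ligase COP1 that removes HFR1, had 177.72 with glucose (90.9% lower) and 307.22 without (78.6% lower).

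PHYB, the main red-light receptor gene of seedlings, had 76.47 with glucose and 286.23 without. HY5, the leucine zipper factor that acts against the PIFs, had 50.08 with glucose and 232.45 without, and ELF3, a clock gene that represses PIF4, had 38.64 with glucose and 132.94 without. In the no-glucose list PHYA, FHL, SPA1, PHYB and HY5 (65.9% of peaks lower) stood above HFR1, and in the glucose list PHYA, FHL and SPA1 did. SPA3, a relative of SPA1 listed without glucose alone, also stood above HFR1 in the no-glucose list, where its score of 555.32 (93.4% of peaks lower) was the highest of the group. The other 5 genes listed without glucose alone were PHYD, COP1, FHY1, FHY3 and PKS1, and these and SPA3 were named after their values were seen. Together they made 6 of 22 genes, against 11.6% of all genes. The centre of the SPA3 peak lay 1474 bp from the gene. That of the best PHYA peak lay 1043 bp from PHYA with glucose and 1026 bp without. With the centre in the gene or within 1 kb, 6 of 22 genes had a peak with glucose and 10 without. The shares of all genes were then 13.9% with glucose and 19.6% without. With equal numbers of peaks, 9 of 22 genes kept a no-glucose peak, against 18.5% of all genes. No test was made of the group.

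**Figure D3:**
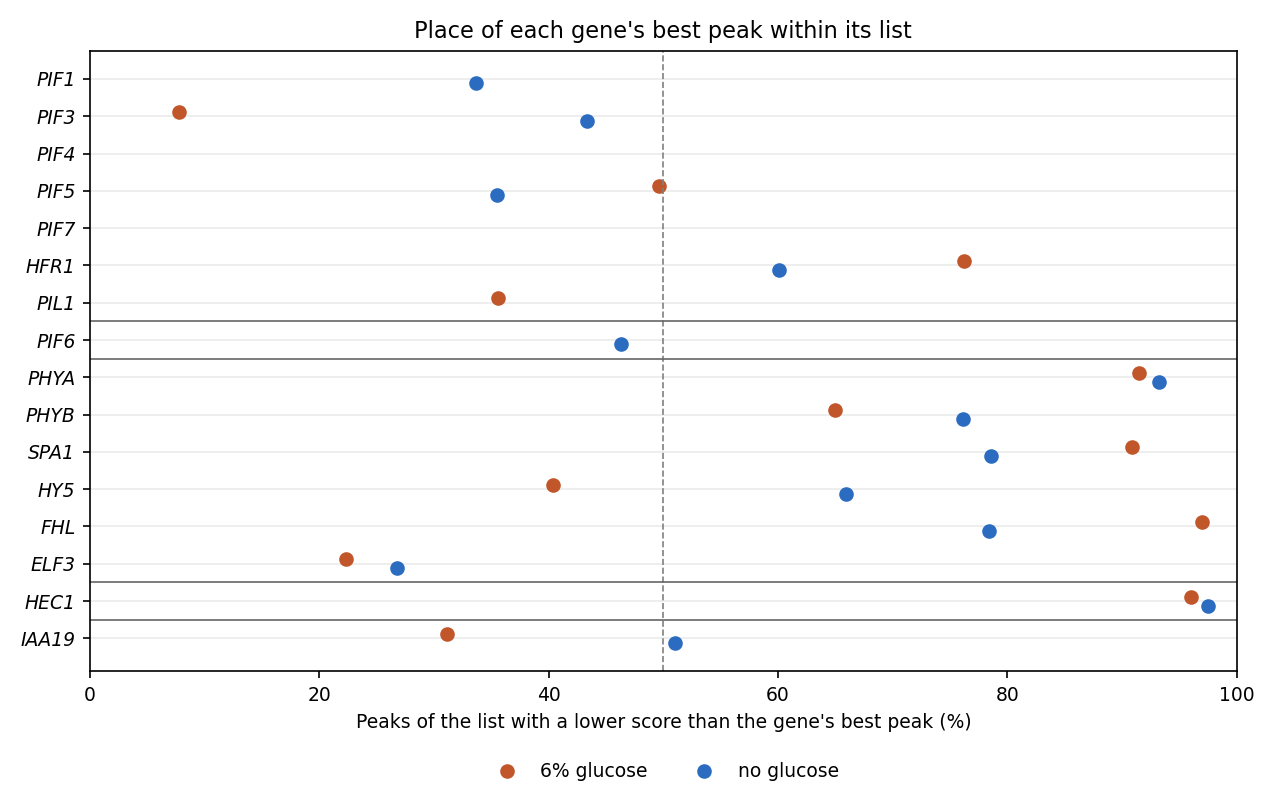
Share of peaks in the list (%) that score lower than the best peak of each named gene, with glucose and without, by gene group from top to bottom: the 7 genes, the related PIF6, light-signalling genes, the HLH gene HEC1 and the PIF target IAA19. The dashed line marks 50%, and a gene without a point had no peak. HFR1 is the only one of the 7 right of the line, while PHYA, SPA1, FHL and HEC1 lie between 78.4% and 97.5% in both lists.

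Among 10 genes of HLH partners and growth-promoting or growth-restraining bHLH proteins, only HEC1 had a peak, in both lists, against 18.1% of all genes with glucose and 25.5% without. HEC1 encodes a bHLH protein that binds PIF1 and limits its activity. Its peak had a score of 276.76 with glucose (96.0% of peaks lower) and 838.12 without (97.5% lower). The peak was 4951 bp wide with glucose and 5533 bp without, and its centre lay 2600 bp from HEC1 with glucose and 2677 bp without. Under the rule that the centre must lie in the gene or within 1 kb, none of the 10 genes had a peak in either list. By that rule 13.9% of all genes had a peak with glucose and 19.6% without.

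Of 8 known PIF targets, 2 had a peak with glucose, against 18.1% of all genes, and 3 without, against 25.5%. Of these, 1 gene, IAA19, was in both lists, against 13.9% of all genes. IAA19, an auxin-response repressor gene of growth, had 43.57 with glucose and 182.1 without, at opposite ends of the gene as at PIF3. The peak centres lay 68 bp from IAA19 with glucose and 1085 bp without. Under the rule that the centre must lie in the gene or within 1 kb, IAA19 left the no-glucose list. SOM, a PIF1 target in seeds, was in the glucose list alone, against 4.25% of all genes. The shade genes ATHB2 and YUC8 were in the no-glucose list alone, against 11.6% of all genes. These 3 were named after their values were seen. With equal numbers of peaks, 1 of the 8 targets kept a no-glucose peak, against 18.5% of all genes. With the centre in the gene or within 1 kb, 1 of 8 had a peak with glucose and 2 without. The shares of all genes were then 13.9% with glucose and 19.6% without.

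**Figure D4:**
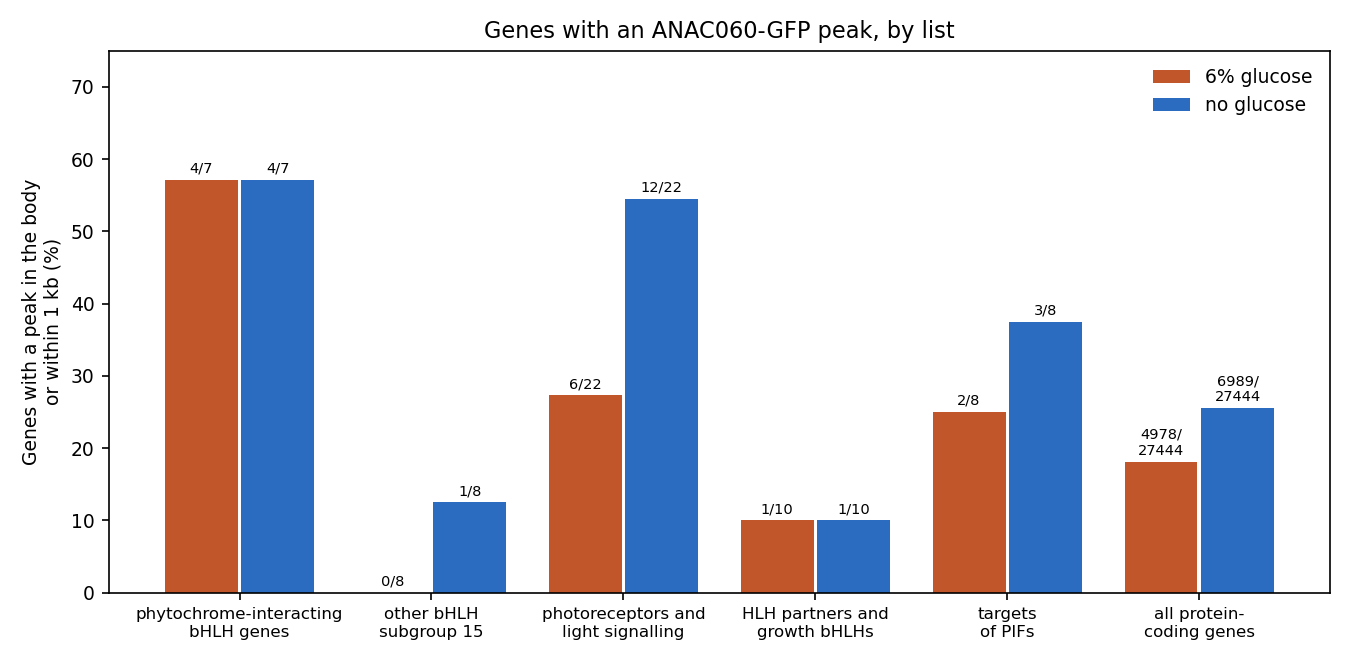
Share of genes (%) with a peak in the body or within 1 kb, with glucose, left bars, and without, right bars, for the 7 genes, 4 related gene lists and all protein-coding genes, with the number of genes above each bar. The family stands at 4 of 7 in both lists, beside 18.1% of all genes with glucose and 25.5% without.

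The genes whose pair of score places was nearest to that of HFR1, the best placed of the family, were AT2G38823, AT2G38830 and AT2G38840. They lie side by side and share 1 peak in each list, with scores of 98.92 with glucose and 207.88 without. Nearness was the distance between the pairs of percentages of lower-scoring peaks, 0.524 points here, over 2 lists and 3801 genes. With 1 value a list, it says nothing beyond equal rank.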

How the data were processed

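ChIP-seq of seedlings gave the 2 peak lists used here, 1 per treatment. Reads were checked with FastQC and mapped with BWA 0.7.15-r1140 to TAIR10, per the submitters' processing notes. Per the file headers, MACS called the peaks without local background and, for the glucose list, without a shift model and with a p-value limit of 0.001. Scores are as deposited by the authors, each from 1 precipitate against 1 input. Read counts were not used here. Positions are printed as the files give them.

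Genes came from the RefSeq table of TAIR10.1, matched by locus (55 of 55). It was set against the TAIR10 peaks after the gene-body share of peak centres was compared with that of centres moved by 5 kb either way: 48.5% against 67.2% and 66.6% with glucose, 38.4% against 66.5% each without. The table gives no strand. A peak touched a gene on overlap of 1 bp with its body or the 1 kb on either side. The assignment was tested on simulated data (500 of 500 planted genes as planted). A planned motif search was not analysed here. Python 3.11.15, numpy 2.4.6, pandas 2.3.3 and matplotlib 3.10.9 were used.

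The genes and lists were chosen with earlier results of these data known. Named were the 7 genes, up to 6 genes per list with a peak in both treatments, every other related bHLH gene with a peak, genes sharing a family peak and the 3 nearest in rank. Peaks outside 1 kb were added after the values were seen.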

Additional observations from a re-analysis of the deposited data

How the results depend on the processing

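The counts of 4 genes with glucose, 4 without and 3 in both stayed within 1.5 times, limit included, under flanks of 500 bp, 2 kb or none. They also did so under peak centres, under equal numbers of peaks (added after seeing the data) and, for the count in both, under 50% reciprocal overlap. With that overlap PIF5 and HFR1 made 2. At 2 kb the no-glucose count was 6, against 31.0% of all genes. With gene bodies alone or peak centres the counts were 3 with glucose, 3 without and 2 in both. For these rules the shares of all genes are given above for each list on its own. A share of all genes in both lists is given only for the 1 kb rule over all peaks. The counts in both under other settings therefore have no such share beside them. Counts of 6 without glucose and of 2 in both lie at the limit. At a minimum score of 100 in both lists the count was 0 with glucose and 0 in both, HFR1 falling just short at 99.57, against 4.93% of all genes with glucose. Among peaks at or above the median score it was 1 with glucose, 1 without and 1 in both, HFR1 each time, against 9.91% of all genes with glucose and 14.0% without. Of the counts of the 4 related lists, 43 stayed within 1.5 times and 13 did not. No paired analysis was possible because each group has 1 library. Depth is unknown, and a gene missing from a list scored below its minimum or was not called.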
